A study of Mus musculus with 105 samples.

Results

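Cycloheximide and harringtonine, a pair of drugs that stop protein synthesis at different steps, were compared in resting mouse CD4+ T cells after 3 h, with transcription left running. The comparison used 6 of the 105 RNA sequencing libraries, picked by their labels. Of these, 3 came from resting cells held in cycloheximide at 100 µg/ml and 3 from resting cells held in harringtonine at 2 µg/ml, as replicates 2, 3 and 4 of each. All cells were CD4+ T cells from spleen and lymph nodes of C57BL/6J females aged 6 weeks, and "resting" means that they had not been given anti-CD3/CD28 beads. Neither group received triptolide or DRB, the transcription inhibitors used elsewhere in the study. Total RNA with ERCC spike-ins, a fixed set of synthetic RNAs, was sequenced and reads were counted over exons and over introns of each gene. 4 sets of libraries outside the comparison are used for context, each with replicates 2, 3 and 4: resting cells left untreated for 3 h, both drugs at 1 h, both drugs at 3 h together with triptolide (25 µM), and both drugs at 3 h in bead-activated cells. The labels do not tie a replicate number to an animal, so p-values measure the spread between libraries. In the main tests of single genes that spread is pooled over all 105 libraries, and not taken from the 6 alone.

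Cycloheximide binds the large ribosomal subunit and blocks the movement of the ribosome along the message, so that elongating ribosomes stay where they are. Harringtonine binds newly joined ribosomes and blocks the first peptide bonds, while ribosomes already past that point run to the stop codon and leave. Both drugs end protein synthesis, but the message stays loaded with ribosomes in one case and is cleared downstream of the start codon in the other. In T cells many short-lived messages need translation to be degraded, and many proteins that degrade messages are themselves short-lived. A comparison of both drugs asks which transcripts differ with the drug, and so possibly with the step at which translation stops. Each drug was used at a fixed concentration, and the step cannot be told apart here from the dose or other properties of the drug.

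The 6 libraries held 1637783 to 6479221 exon counts, 757110 to 3029181 intron counts and 47282 to 223724 ERCC counts. Between 78.47% and 86.43% of the reads were outside the gene counts, mostly because they aligned to more than 1 place. The CD4+ T cell markers Cd3e, Cd4, Lck, Cd28, Il7r and others summed to 3517 to 4094 CPM (counts scaled to a common library total) with cycloheximide and to 3651 to 4177 CPM with harringtonine. B cell markers followed the replicate number more than the drug, from 92.8 to 397 CPM with cycloheximide and from 77.4 to 388 CPM with harringtonine. Most of that was the immunoglobulin chain Igkc, at 355, 144 and 63.6 CPM with cycloheximide and 357, 126 and 55.0 CPM with harringtonine in replicates 2, 3 and 4. These marker levels are scaled to the total exon count alone, and the CPM of genes from here on also carries the TMM factor of each library. All 8 B cell markers tested had a difference above 0 and 0 were called, and their part in the results was not tested. Natural killer, CD8+ T and erythroid markers summed to at most 32.4 CPM, and the myeloid sum of 115 to 136 CPM against 96.5 to 104 CPM was nearly all Ctss, with Csf1r, S100a8 and S100a9 at 0 in all 6 libraries.

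Per spike-in count, exonic RNA did not separate the drugs, while intronic RNA was lower in every cycloheximide library than in any harringtonine library, in a design too small for a test to pass. Exon counts per ERCC count were 36.5, 24.2 and 29.0 with cycloheximide and 34.6, 27.3 and 28.8 with harringtonine, a ratio of 97.9% (exact permutation test, two-sided, p = 1.0). The groups overlapped, and within a replicate number the ratio ran from 88.6% to 105%. Both lay above the untreated cells at 3 h, at 19.6, 11.8 and 16.8. Intron counts per ERCC count were 11.7, 9.49 and 12.8 with cycloheximide and 16.01, 19.3 and 17.7 with harringtonine, a ratio of 64.0%. Here the groups did not overlap and cycloheximide was lower in all 3 replicate numbers, but 3 libraries against 3 cannot give an exact p below 0.1, which is the value obtained (0.3 after adjustment over 6 library measures). Untreated cells at 3 h, with 12.5, 10.4 and 15.1, overlapped the cycloheximide group and lay below every harringtonine library. In a bulk sample, fewer cells and less RNA per cell cannot be told apart.

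The share of intronic among all exonic and intronic counts gave the same order. It was 24.3%, 28.1% and 30.7% with cycloheximide and 31.6%, 41.4% and 38.0% with harringtonine, a difference of -9.26 percentage points (exact permutation test, two-sided, p = 0.1, the smallest possible). No cycloheximide library reached the lowest harringtonine library. At 1 h the groups overlapped in intron counts per ERCC count, with 14.2, 12.5 and 18.7 for cycloheximide and 14.7, 15.5 and 17.8 for harringtonine. With triptolide at 3 h the values were 4.64, 3.41 and 5.64 against 5.01, 3.54 and 5.57, and in activated cells 26.3, 13.9 and 16.1 against 27.5, 13.4 and 14.3. The groups overlapped in each of these other pairs, and the difference between the pairs was not tested. The intronic share was lower with cycloheximide in all 3 replicate numbers at 1 h and with triptolide as well, with groups that overlapped, at 31.8%, 34.1% and 39.7% against 34.2%, 36.8% and 40.3% at 1 h.

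**Figure D1:**
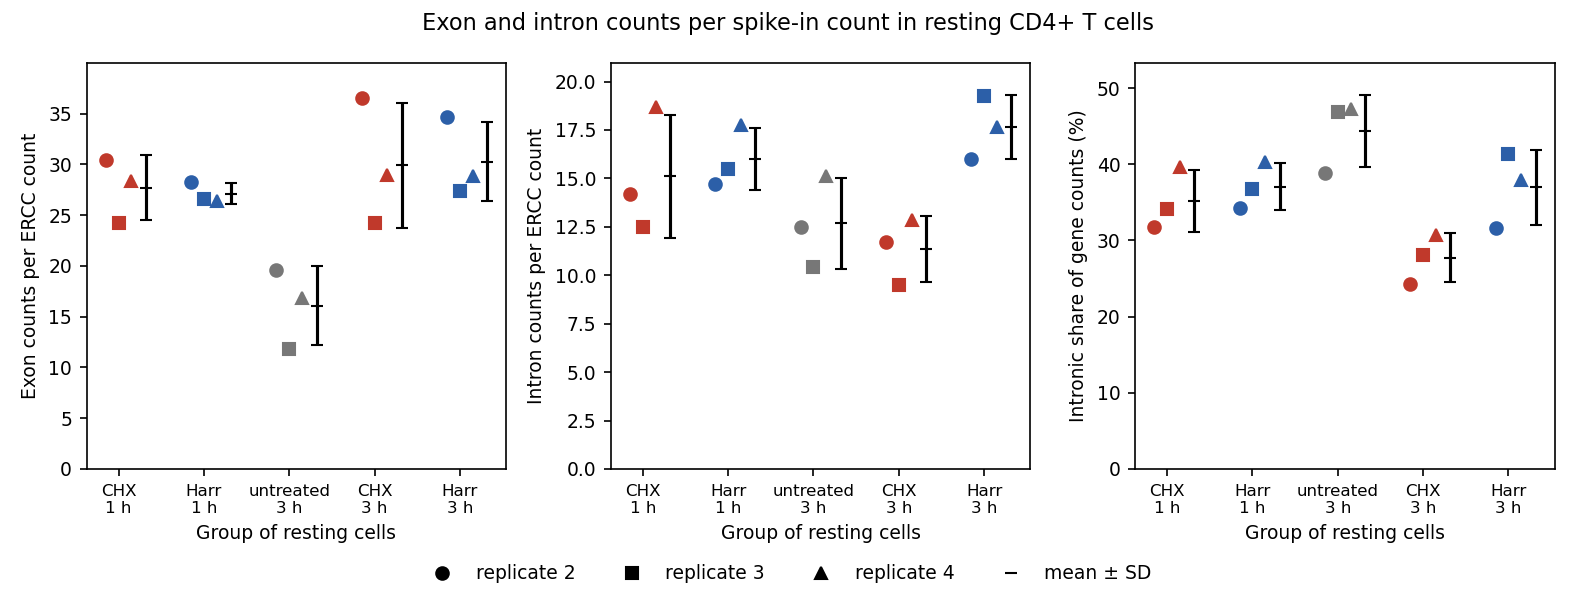
Exon counts per ERCC count (left), intron counts per ERCC count (middle) and the intronic share of gene counts in percent (right) for 5 groups of resting cells, with 1 symbol per library, shaped by replicate number, and the mean ± SD beside it. At 3 h the exon ratio of both drugs overlapped, while the intron ratio was 9.49 to 12.8 with cycloheximide (CHX) and 16.01 to 19.3 with harringtonine (Harr).

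Gene by gene, 1 of 10741 genes tested was higher with cycloheximide and 0 were lower at an adjusted p under 0.05 (edgeR quasi-likelihood test with Benjamini-Hochberg adjustment), which is 0.00931% and 0.0% of the genes. A gene that passes this limit is called here, and differences are log2 values ± SE, cycloheximide minus harringtonine, with n = 3 libraries a group. At an unadjusted p under 0.05 there were 490 genes, and DESeq2 called 2. The called gene was Ncaph2 (ENSMUSG00000008690), which encodes a subunit of condensin II, the complex that compacts chromosomes. It lies at chr15:89355719-89372826 on the plus strand of mm10. Its exon level was 196, 159 and 165 CPM with cycloheximide and 103, 84.6 and 96.6 CPM with harringtonine, so the lowest cycloheximide library exceeded the highest harringtonine library. The difference was 0.87 ± 0.16 (edgeR adjusted p = 0.00315).

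Ncaph2 stood between both drugs in untreated cells, at 134, 126 and 126 CPM. Against those cells it was called higher with cycloheximide (0.43 ± 0.16, edgeR adjusted p = 0.0305) and lower with harringtonine (-0.44 ± 0.16, edgeR adjusted p = 0.0355), in comparisons that share the untreated libraries. Unless spike-in scaling is named, differences from untreated cells here and below are relative to the typical message. Scaled on spike-ins, the median gene was higher than untreated by 1.02 with cycloheximide and by 1.00 with harringtonine. Ncaph2 itself did not separate the drugs at every time. At 1 h Ncaph2 did not separate, with 160, 142 and 136 CPM against 160, 132 and 133 CPM. In activated cells at 3 h it was at 151, 172 and 155 CPM with cycloheximide and 97.7, 113 and 95.1 CPM with harringtonine, which do not overlap (0.65 ± 0.16, edgeR adjusted p = 0.699). With triptolide it was at 282, 206 and 233 CPM against 221, 181 and 219 CPM. The intron counts of Ncaph2 differed by 0.23 ± 0.29 (edgeR adjusted p = 1.0). Its last part overlaps Sco2 and Tymp on the minus strand, and the strand setting of the counting is not given in the sources used here, and Tymp was at most at 2.90 CPM and Sco2 at most at 1.99 CPM in these libraries. The call was lost without cycloheximide replicate 2 (edgeR adjusted p = 0.21) and without harringtonine replicate 3 (0.264), and also in a fit of the 6 libraries alone (0.0502), with ERCC scaling (1.0), with mitochondrial scaling (0.915) and with a trend in GC content and length removed (0.0821), while the difference stayed between 0.71 and 1.11 under every alternative run.

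The 95% interval of the difference lay within 1 log2 unit of 0 for 7746 genes, 72.116% of those tested, so a change of more than 2-fold either way was outside the interval of most genes. Groups of CPM values that do not overlap were found for 1289 genes with cycloheximide higher (12%) and for 913 with it lower (8.5%).

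The libraries also carry a replicate effect that is shared by both drugs: the same replicate number deviated together in each group. With the replicate number as a block, the median SE fell from 0.27 to 0.19 and edgeR called 114 genes, 69 higher with cycloheximide (0.642%) and 45 lower (0.419%), with Ncaph2 among them. Sizes were moderate, from 0.46 to 1.86 on the log2 scale among the higher genes (median 0.68) and from 0.45 to 1.34 among the lower genes (median -0.58). The groups did not overlap for 63 of the 69 and for 42 of the 45. These calls depend on the block and on every library: leaving out 1 of the 6 with the block left 15 to 46 calls, and the lowest, 15, came without cycloheximide replicate 2 and without harringtonine replicate 3. In the other direction, the block fitted on the 6 libraries alone gave 2525 calls, 1193 higher and 1332 lower, with the 114 among them. That fit takes its spread from these 6 libraries alone, which leave few degrees of freedom. Since the same libraries gave the 114 calls, it is no separate check of them. The 114 calls also depend on base composition and transcript length: with a smooth trend in GC content and length removed from each library, the block gave 33 calls, 22 higher and 11 lower (0.307%), of which 25 were among the 114. Beside the genes below it is said which kept their call in that fit.

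**Figure D2:**
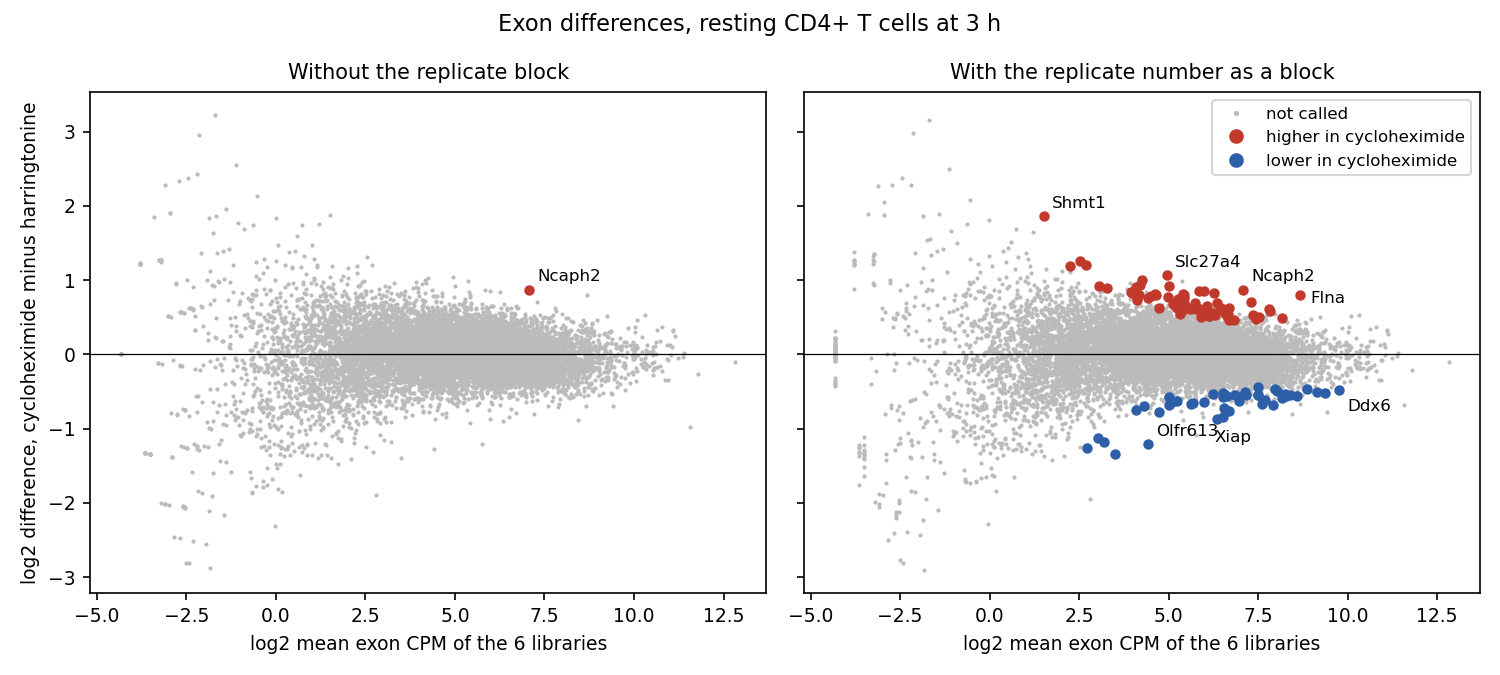
The log2 difference in exon counts (vertical axis, cycloheximide minus harringtonine) against the log2 mean exon CPM of the 6 libraries, 1 point per gene of 10741, without (left) and with (right) the replicate number as a block. Called genes are coloured: Ncaph2 alone on the left, and 69 higher and 45 lower genes on the right.

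The genes named here are the largest rises under the block among genes that reach a mean of 10 CPM in either group and whose groups do not overlap. Slc27a4, a fatty acid transporter, was at 54.2, 37.4 and 32.3 CPM with cycloheximide and 24.9, 15.4 and 20.6 CPM with harringtonine (1.062 ± 0.21, edgeR adjusted p with the block = 0.0034). Rex1bd had 30.0, 24.9 and 22.0 CPM against 14.3, 11.2 and 12.2 CPM (1.00 ± 0.20). Tfeb, the transcription factor of lysosomal and autophagy genes, had 29.3, 21.1 and 21.3 CPM against 16.3, 10.8 and 10.8 CPM (0.94 ± 0.25). As the rule requires, in each of them the lowest cycloheximide library was above the highest harringtonine library. Prelid1, a carrier of phosphatidic acid between the mitochondrial membranes, was at 88.3, 76.5 and 79.5 CPM against 51.9, 38.3 and 45.4 CPM (0.86 ± 0.16). Slc29a1, a nucleoside transporter, had 26.8, 18.01 and 22.2 CPM against 12.2, 11.9 and 10.8 CPM (0.91 ± 0.21). The remaining genes that the naming rule takes are Lcmt1, which methylates protein phosphatase catalytic subunits, Gipc1, an adaptor of membrane traffic, Gpnmb, a membrane glycoprotein, and Rmnd5b, a subunit of an E3 ubiquitin ligase. Their differences ran from 0.86 to 0.92, and by the rule none of their groups overlapped. With the GC and length trend removed, Ncaph2, Slc27a4, Rex1bd, Prelid1 and Rmnd5b kept their calls, while 5 genes passed the limit no longer. Of these, Lcmt1 (0.87, edgeR adjusted p = 0.0734) and Gpnmb (0.84, 0.0679) differed by nearly as much as before, and Slc29a1 (0.74, 0.0577), Gipc1 (0.68, 0.0666) and Tfeb (0.67, 0.144) by less.

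Of the 69 genes, Shmt1 had the largest difference, at a level under the minimum that the naming rule sets for this comparison. Shmt1, the cytosolic serine hydroxymethyltransferase of folate metabolism (chr11:60788104-60811718, minus strand), was a low gene, at 4.19, 3.46 and 4.77 CPM with cycloheximide and 3.05, 0.46 and 0.89 CPM with harringtonine. That rests on 13, 10 and 36 counts against 6, 2 and 5 counts (1.86 ± 0.40 with the block, edgeR adjusted p = 0.00743, against 0.0847 without it). The other genes of this paragraph were singled out after their values were seen. Mthfd1, another folate enzyme, had 34.2, 26.7 and 24.4 CPM against 21.9, 11.9 and 16.7 CPM, and Gpx1, a glutathione peroxidase, 109, 85.2 and 101 CPM against 59.6, 48.8 and 56.7 CPM. Il2rb, the beta chain of the IL-2 and IL-15 receptors, had 181, 102 and 95.5 CPM against 112, 69.9 and 60.4 CPM, so its groups overlapped while each replicate number gave more with cycloheximide. Acly, which makes cytosolic acetyl-CoA, was at 214, 213 and 221 CPM against 159, 139 and 159 CPM. These 5 genes kept their calls with the GC and length trend removed. Of 3 more called genes singled out in the same way, Fpgs, a further folate enzyme, then differed by 0.64 (from 0.84, edgeR adjusted p = 0.151), Hexa by 0.58 (from 0.76, 0.0664) and Lamp1, a lysosomal membrane protein, by 0.33 (from 0.46, 0.222), so that they were no longer called.

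Flna, also singled out after its values were seen, was far below the untreated level in CPM with both drugs. It encodes filamin A, the actin crosslinker, at chrX:74223461-74249820 on the minus strand. Its level was 586, 448 and 520 CPM with cycloheximide and 374, 238 and 285 CPM with harringtonine (0.80 ± 0.13 with the block, edgeR adjusted p = 0.000163, against 0.24 without it), and it kept its call with the GC and length trend removed (0.88). Untreated cells at 3 h had 1886, 1633 and 1474 CPM, so both drugs lay far below them and harringtonine lay lowest. At 1 h the drugs gave 1181, 1049 and 1170 CPM against 1141, 891 and 1046 CPM. With triptolide both drugs left it high, at 2183, 2001 and 2026 CPM against 2336, 2310 and 2178 CPM. The difference of the contrast without minus with triptolide was 0.93 ± 0.27 (edgeR adjusted p = 0.276).

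Of the genes lower with cycloheximide under the block, Xiap, an inhibitor of caspases (chrX:42059679-42109656, plus strand), had 48.7, 73.4 and 74.7 CPM with cycloheximide and 96.7, 134 and 123 CPM with harringtonine (-0.84 ± 0.16, edgeR adjusted p with the block = 0.00222). Untreated cells had 145, 202 and 234 CPM, above both drugs. Nfat5, a transcription factor of the response to osmotic stress, had 67.4, 71.7 and 87.8 CPM against 108, 162 and 123.7 CPM (-0.77 ± 0.17). Mbtd1, a chromatin reader, had 46.4, 51.9 and 73.0 CPM against 75.3, 121 and 122 CPM (-0.88 ± 0.17). As the naming rule requires, in all of these the highest cycloheximide library lay below the lowest harringtonine library. Zbtb37, a zinc finger protein, had 57.4, 80.3 and 74.3 CPM against 93.7, 144 and 113 CPM. Qser1, Raph1, which acts in actin-based cell movement, and Spred1, a brake on Ras signalling, differed by -0.78, -0.75 and -0.70. With the GC and length trend removed, Xiap (-0.52, edgeR adjusted p = 0.0218) and Mbtd1 kept their calls. Nfat5 (-0.43, edgeR adjusted p = 0.0906), Zbtb37 (-0.32, 0.335), Qser1, Raph1 and Spred1 lost them.

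The 3 largest differences among the named lower genes belonged to genes better known from other tissues. Tmprss11b, a serine protease of epithelia, had 5.80, 5.54 and 6.62 CPM with cycloheximide and 19.9, 16.7 and 12.8 CPM with harringtonine (-1.34 ± 0.28). The olfactory receptor gene Olfr613 had 10.96, 12.8 and 13.8 CPM against 25.4, 40.4 and 25.2 CPM (-1.21 ± 0.29), and Usp29 had 4.19, 4.85 and 5.69 CPM against 10.7, 12.8 and 10.1 CPM (-1.13 ± 0.30). Their intron counts were at most 1, 0 and 3 in any of the 6 libraries. Whether reads counted for these genes came from the genes themselves or from other transcripts was not tested. Several well expressed genes were also called, and were singled out after their values were seen. Ddx6, a helicase of translational repression and decapping, had 645, 774 and 759 CPM against 958, 1057 and 1012 CPM (-0.48 ± 0.13). Itga4, an integrin alpha chain, had 392.3, 524 and 476 CPM against 539, 770 and 680 CPM, and Rictor, a subunit of mTOR complex 2, had 355, 380 and 432 CPM against 494, 548 and 574 CPM. Of the genes in this paragraph, Tmprss11b kept its call with the GC and length trend removed (-1.19), while Ddx6 (-0.30, edgeR adjusted p = 0.255), Itga4 (-0.19) and Rictor (-0.18) lost theirs. Olfr613 (-0.96, edgeR adjusted p = 0.0717) and Usp29 (-0.91, 0.13) also missed the limit, with differences that remained large.

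**Figure D3:**
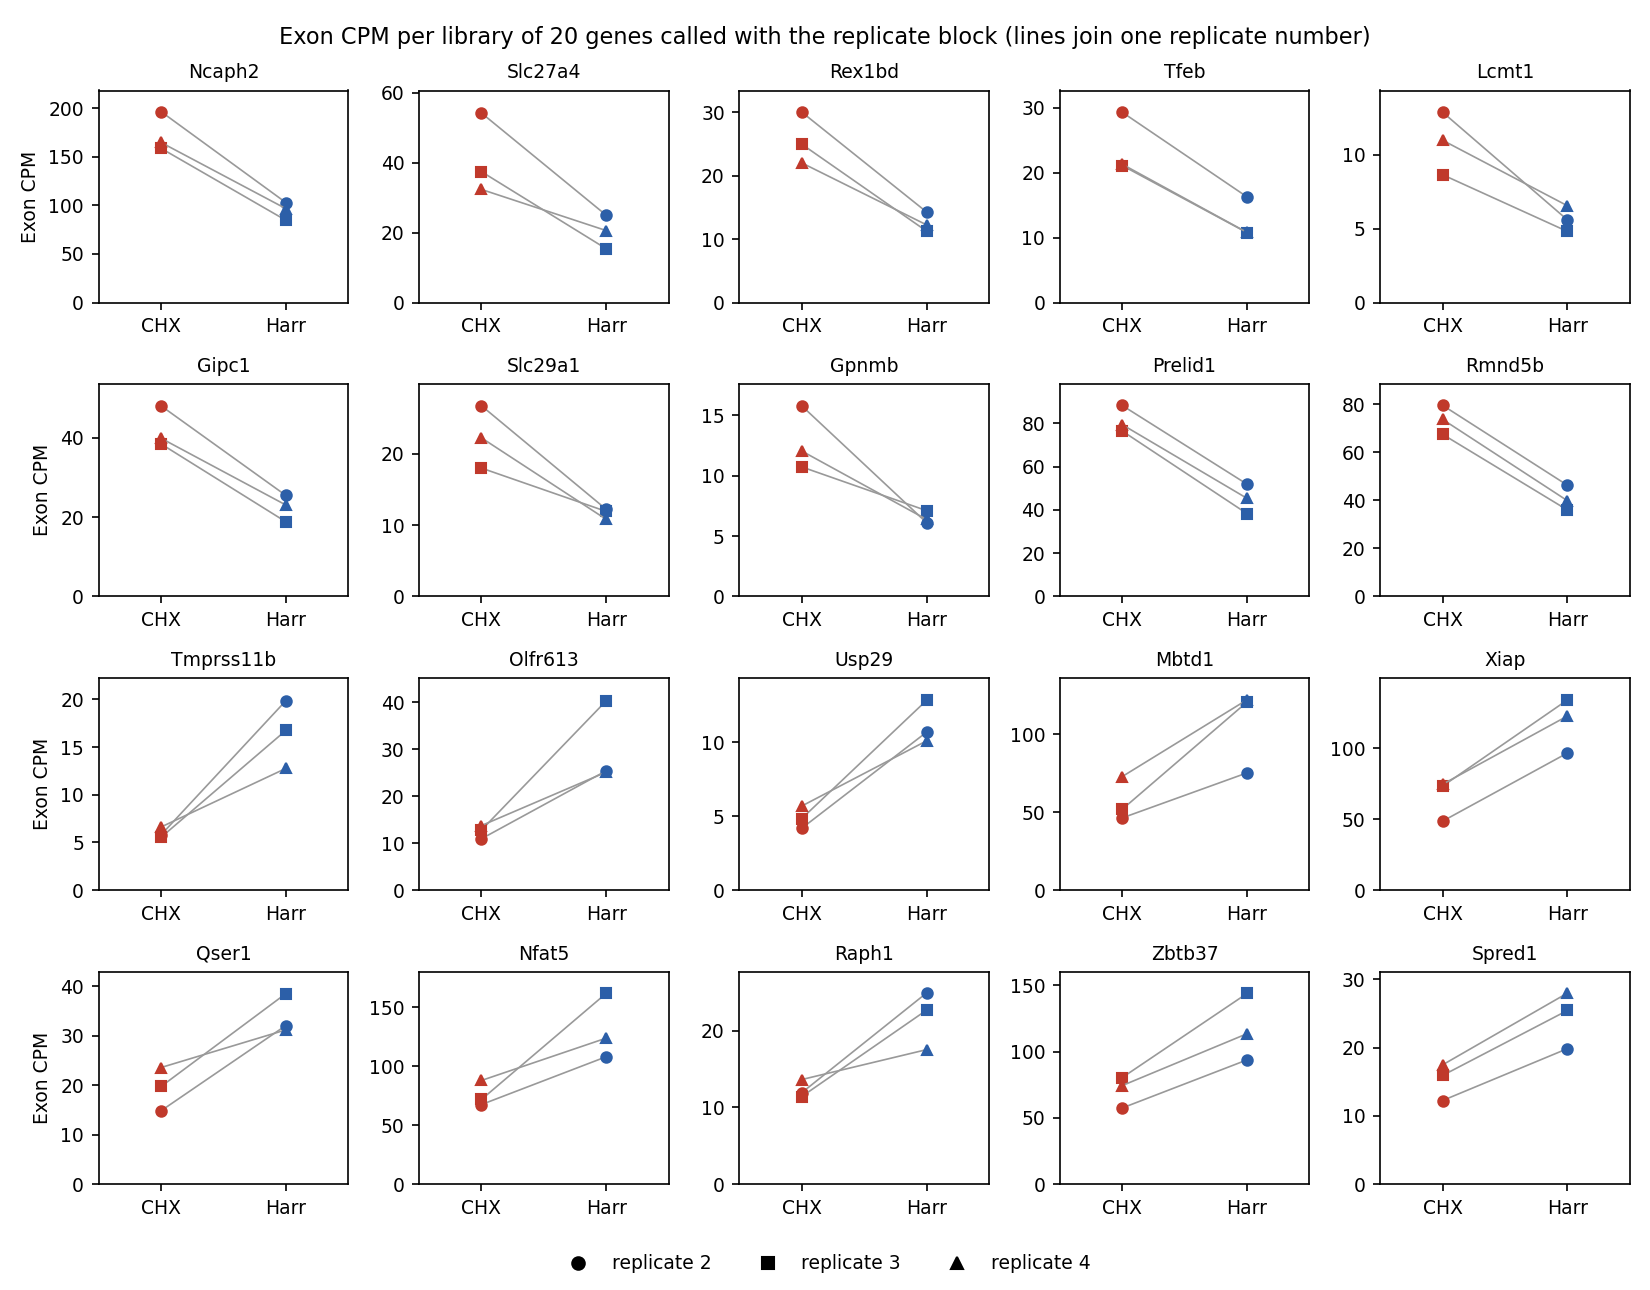
Exon CPM of the 20 genes that the naming rule takes from the fit with the replicate block, 10 higher and 10 lower with cycloheximide, with each line joining the cycloheximide (CHX) and harringtonine (Harr) library of 1 replicate number. Since the rule takes only genes whose groups do not overlap, every line falls from left to right in the upper 10 panels and rises in the lower 10 panels.

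Most called genes had a difference of the same sign in the other pairs of drug groups, whose libraries entered the same fit but not the contrast, and carry the same replicate numbers. The called genes are set beside all genes tested, and not beside genes matched in length and GC content. At 1 h, 64 of the 69 higher genes had a difference above 0 (median 0.19), against 5317 of all 10741 genes (median 0.00). In activated cells 61 of 69 did (median 0.29), and with triptolide 62 of 69 did (median 0.56), against 5267 and 4802 of all genes. Of the 45 lower genes, 2 were above 0 at 1 h (median -0.17), 5 in activated cells (median -0.19) and 5 with triptolide (median -0.29). Without the block, edgeR called 15 of the 69 higher with triptolide, against 1.99% of all genes, and 0 of the 45 lower, against 0.177%. It called 0 of either set at 1 h or in activated cells, where it called 0 of all genes. The intron counts of the higher genes had a median difference of 0.21 over 60 genes tested and those of the lower genes -0.32 over 39, against -0.07 for the 8693 genes of the exon comparison that were also tested in introns.

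Differences mostly below 0 were found in a list of RNA-binding and mRNA decay regulators, of which few passed the test. A separate list of 14 nonsense-mediated decay factors had 7 members above 0 and 7 below, with a median of -0.06 and 0 calls. The list of 23 RNA-binding and decay regulators had 20 members below 0 and a median of -0.23, against 0.02 over all genes tested. No member was called without the block, and 4 of 23 were called lower with it, against 0.419% of all genes. Dcp2, the decapping enzyme, had 46.4, 68.2 and 69.4 CPM against 73.3, 97.5 and 96.8 CPM (-0.54 ± 0.13, edgeR adjusted p with the block = 0.0244). Xrn1, the exonuclease that degrades decapped messages, had 37.4, 65.1 and 47.8 CPM against 65.7, 95.9 and 71.9 CPM (-0.64 ± 0.17, 0.0385). Rc3h1 and Rc3h2, which encode the Roquin proteins that restrain T cell messages such as that of ICOS, had 99.0, 119 and 128 CPM against 144, 184 and 168 CPM, and 81.2, 99.0 and 114 CPM against 137, 170 and 153 CPM. All 4 were lower with cycloheximide in every replicate number and their groups did not overlap, most narrowly for Xrn1.

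Other members of that list did not pass. Cnot6l, a deadenylase subunit, had 240, 339 and 387 CPM against 342, 499 and 515 CPM (-0.50 ± 0.14, edgeR adjusted p with the block = 0.0558). The abundant Btg1 and Cnot1 differed by -0.16 ± 0.27 and -0.18 ± 0.21 without the block. Against untreated cells, and relative to the typical message, Rc3h1 was lower by 1.53 with cycloheximide (-1.53 ± 0.25, edgeR adjusted p = 1.62e-06) and by 1.01 with harringtonine (-1.01 ± 0.24, edgeR adjusted p = 0.00134). The median transcript length of the list was 5541 nt against 3449 nt over all genes tested, and its GC content 45.7% against 49.4%, and the 4 calls were not kept when the trend in both was removed. Dcp2 then differed by -0.27 (edgeR adjusted p = 0.263), Xrn1 by -0.33 (0.308), Rc3h1 by -0.19 (0.531) and Rc3h2 by -0.29 (0.261), and the median of the list was -0.14. Scaling on mitochondrial mRNAs moved the median of all genes by 0.20 and brought the list to -0.02.

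The other lists showed fewer calls. Over 32 lists of pathways and complexes, holding 1079 list entries tested, edgeR called none without the block, and with it 6 entries higher and 5 lower. As shares of the entries these are close to the 0.642% and 0.419% of all genes, and the members below are given as values. The 5 lower entries were the 4 decay regulators and Aff4. Aff4, the scaffold of the super elongation complex of RNA polymerase II, had 282, 322 and 334 CPM against 420, 480 and 484 CPM (-0.56 ± 0.12, edgeR adjusted p with the block = 0.00974). Replication-dependent histones had 48 of 52 members above 0 and a median of 0.33, with 1 called higher under the block, Hist1h2ak, at 56.1, 59.2 and 44.8 CPM against 36.7, 36.7 and 25.9 CPM. Hist1h1c, the most abundant, had 1254, 1300 and 974.7 CPM against 1033, 932 and 771 CPM (0.37 ± 0.38). Core histone genes are near-identical copies, so the split of reads among them is uncertain. Targets of ATF4, the transcription factor of the amino acid response, had 29 of 33 members above 0 and a median of 0.31, with the tRNA synthetase genes Yars and Cars called higher under the block. Yars had 47.1, 36.0 and 36.0 CPM against 27.0, 24.5 and 19.1 CPM, while Atf4 itself did not separate, at 608, 435 and 529 CPM against 627, 410 and 452 CPM. Aff4, Hist1h2ak, Yars and Cars lost their calls with the GC and length trend removed (differences of -0.29, 0.40, 0.63 and 0.49), and the medians of the histones and ATF4 targets were then 0.20 and 0.18.

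In the nuclear-encoded respiratory chain, 44 of 62 members were above 0 with a median of 0.11, and 2 were called higher under the block, against 0.642% of all genes. Uqcrc1, of complex III, had 203, 179 and 197 CPM against 123.7, 108 and 125 CPM (0.70 ± 0.16), and Atp5o, of the ATP synthase, had 60.9, 57.5 and 56.9 CPM against 37.2, 37.8 and 38.1 CPM (0.62 ± 0.15). Of messages made inside mitochondria, all 13 were below 0, with a median of -0.49 and a range from -1.10 to -0.01, and 0 were called. The median was -0.73, -0.40 and -0.16 within replicates 2, 3 and 4, and -0.24 with the block and the GC and length trend removed. Summed, they came to 2790, 4001 and 4668 CPM with cycloheximide and 3839, 4356 and 4563 CPM with harringtonine, which overlap, and in replicate 4 the order was the opposite. Their largest members, mt-Co1 and mt-Co3, differed by -0.16 ± 0.25 and -0.01 ± 0.27. In the oligosaccharyltransferase and translocation list Ddost was called higher under the block, at 92.5, 82.1 and 72.3 CPM against 58.5, 55.3 and 56.2 CPM. Uqcrc1 and Atp5o kept their calls with the GC and length trend removed, and Ddost did not (0.33, edgeR adjusted p = 0.212).

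No gene of a ribosomal protein or translation factor was called with or without the block. The 79 cytosolic ribosomal protein genes had a median of 0.00 and a range from -0.26 to 0.28, with 0 called and a summed level of 59699, 52587 and 58832 CPM against 61322, 49438 and 60515 CPM. Of 35 translation factors 0 were called. Pabpc1, the poly(A)-binding protein, had 111, 122 and 139 CPM against 171, 208 and 193 CPM (-0.62 ± 0.30, edgeR adjusted p = 0.957, or 0.0644 with the block), and Eif1ax had 47.1, 49.5 and 52.7 CPM against 36.1, 35.1 and 37.2 CPM (0.46 ± 0.15). Their groups did not overlap, and Eif1ax was called once the GC and length trend was removed in the fit with the block (0.67, edgeR adjusted p = 0.00291). The 30 immediate early genes, whose short-lived messages accumulate when translation stops, had a median of 0.11 between the drugs. Their median difference from untreated cells was 0.83 with cycloheximide and 0.77 with harringtonine, in comparisons that share the untreated libraries. Junb was at 1317, 1104 and 1340 CPM against 1136, 640 and 963 CPM (0.46 ± 0.46). The NF-kB feedback genes had a median of -0.03, with Tnfaip3, which encodes A20, at 2596, 2454 and 2869 CPM against 2778, 2375 and 2932 CPM. T cell receptor signalling genes (median 0.10 over 30), cytokines (0.10 over 21), nonsense-mediated decay factors (-0.06 over 14), splicing factors (-0.11 over 29), glycolysis (0.17 over 21) and numbered zinc finger genes (-0.09 over 296) had 0 calls with or without the block. Like Eif1ax, the zinc finger gene Zfp90 was called higher once the GC and length trend was removed in the fit with the block (0.97, edgeR adjusted p = 0.0303).

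**Figure D4:**
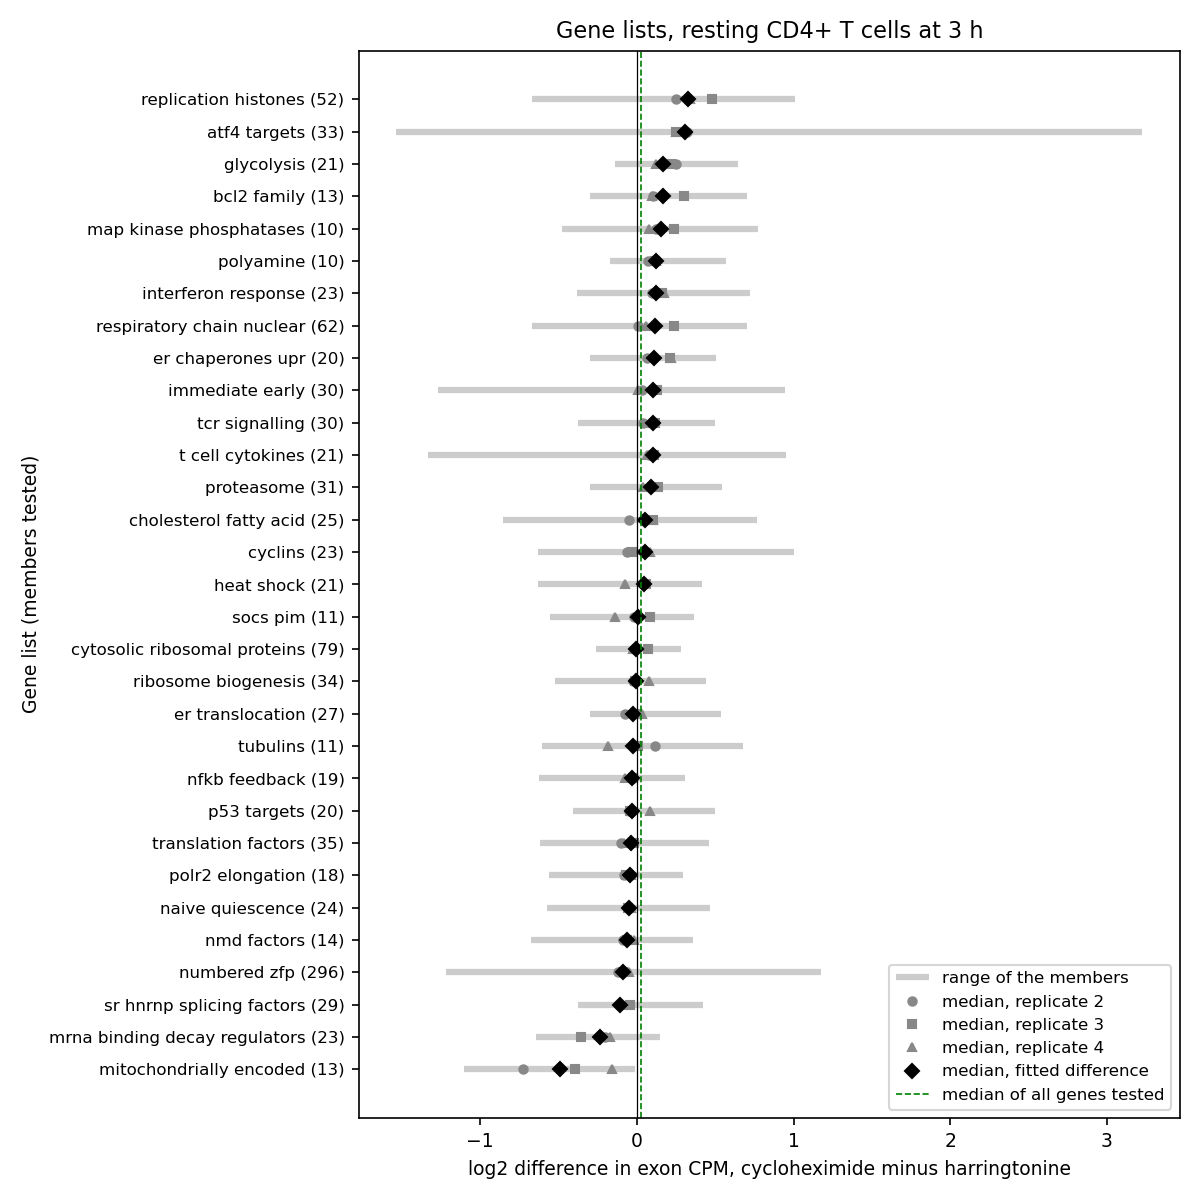
Log2 difference in exon CPM (horizontal axis, cycloheximide minus harringtonine) for 31 gene lists with at least 5 members tested, with the range of the members as a grey bar, the median within each replicate number as a grey symbol and the median of the fitted differences as a black diamond. Most medians lie near the dashed line of all genes (0.02), histones (0.33) and ATF4 targets (0.31) lie highest, and decay regulators (-0.23) and mitochondrially encoded messages (-0.49) lowest.

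Across genes, the difference followed transcript length and GC content, taken from the longest annotated transcript of each gene. Spearman's rho across 10716 genes was -0.35 with length and 0.41 with GC content, as a description only, since genes of 1 library share its depth and base composition. Over 5 equal-sized groups of genes ordered by GC content, from the lowest (median 41.2%) to the highest (57.5%), the median difference went from -0.16 to 0.20. Ordered by length in the same way, from the shortest group (median 1409 nt) to the longest (6840 nt), it went from 0.15 to -0.17. Each replicate number gave the same order at both ends, for example -0.24, -0.12 and -0.11 in the group of lowest GC content. The 69 higher genes had a median length of 2404 nt and 54.5% GC, and the 45 lower genes 8993 nt and 42.2% GC, the latter over the 44 with an annotated transcript.

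The same rho values were smaller in the other pairs of drug groups. With GC content rho was 0.18 at 1 h, 0.09 with triptolide and -0.03 in activated cells, and with length -0.09, -0.19 and -0.12. With the smooth trend in both removed and no block, edgeR called 0 genes, and Ncaph2 differed by 0.71 (adjusted p = 0.0821) against 0.87 before. What the trend reflects was not tested.

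**Figure D5:**
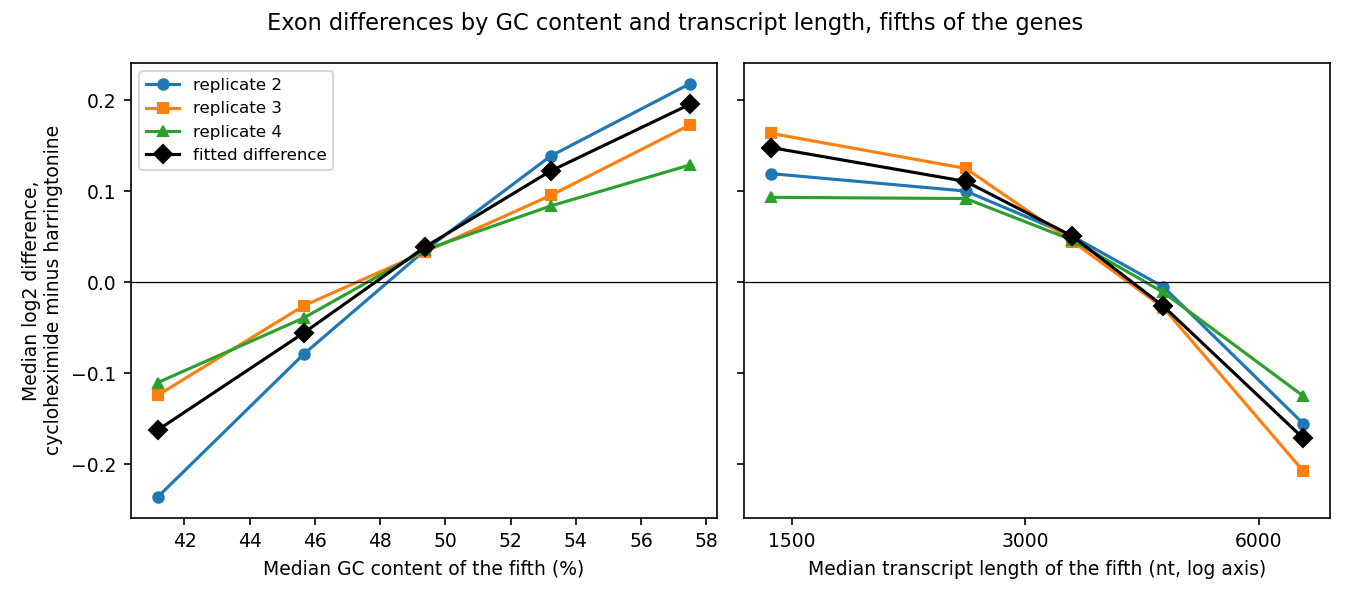
Median log2 difference in exon counts (vertical axis, cycloheximide minus harringtonine) of genes in 5 equal-sized groups by GC content (left, in percent) and by transcript length (right, in nucleotides on a log axis), for each replicate number and for the fitted difference. The median rose from -0.16 to 0.20 with GC content and fell from 0.15 to -0.17 with length.

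Intron counts, which come mostly from unspliced transcripts, gave 0 calls over 10750 genes (0.0%), with 102 genes at an unadjusted p under 0.05 and 0 calls with the block (599 at an unadjusted p under 0.05). These differences are relative to the typical intron, and the precision was lower than in exons: the median SE was 0.42, and 41.87% of the genes had a 95% interval within 1 log2 unit of 0. Scaled on spike-ins, the median intron difference was -0.53, which is 69.5% of the harringtonine level, with quartiles of -0.78 and -0.21, and 84.4% of the genes were below 0. None was called on that scale either (277 at an unadjusted p under 0.05). On the same scale the exon median was 0.03. On the spike-in scale, which moves all introns of a library by a common factor, lower values with cycloheximide were spread over most genes. The library-level difference behind them did not pass a test (exact permutation test, two-sided, p = 0.1).

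The exon difference minus the intron difference, taken per library for 8693 genes with limma, gave 0 calls (0.0%) and 21 genes at an unadjusted p under 0.05. Its median SE was 0.60 and 14.966% of the genes had an interval within 1 log2 unit of 0, so most single genes could not be placed by this measure.

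Set beside untreated cells at 3 h, both drugs changed many genes, in comparisons that share the untreated libraries. Cycloheximide raised 1483 genes (13.8%) and lowered 1341 (12.5%), and harringtonine raised 1057 (9.84%) and lowered 1141 (10.6%), relative to the typical message. With the block these counts were 2297 and 2409 with cycloheximide and 1882 and 2083 with harringtonine. Scaled on spike-ins, the median gene was higher by 1.02 with cycloheximide and by 1.00 with harringtonine. On that scale edgeR called 6560 of 10741 genes higher and 33 lower with cycloheximide, and 6453 higher and 21 lower with harringtonine. Most genes lowered relative to the typical message were thus not called lower per spike-in. The genes called under the block were picked with the same drug libraries, which favours these directions against untreated cells, so the counts that follow are a description only. Of the 69 higher genes, 27 were called higher than untreated with cycloheximide and 5 lower. With harringtonine 20 of them were called lower than untreated and 5 higher. Of the 45 lower genes, 27 were called lower than untreated with cycloheximide and 0 higher, and 10 were called lower with harringtonine and 3 higher.

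Between the times, the contrast of the drugs was not shown to differ for any gene: at 1 h edgeR called 0 genes (0.0%, 105 at an unadjusted p under 0.05), and the test of 3 h minus 1 h also called 0 (0.0%, 93 at an unadjusted p under 0.05, and DESeq2 0). In activated cells the drugs gave 0 calls (0.0%, 228 at an unadjusted p under 0.05). With the block there were 2 calls at 1 h, both higher, and 18 in activated cells, 14 higher and 4 lower. The test of resting minus activated called 1 gene, Shmt1 (0.00931%), with a difference of 2.30 ± 0.46 (edgeR adjusted p = 0.0389). Activated cells had far more of it, at 70.7, 56.7 and 62.0 CPM with cycloheximide and 87.6, 80.8 and 86.6 CPM with harringtonine, so there it was lower with cycloheximide in each replicate number. The call was lost without cycloheximide replicate 2 or 4 and without harringtonine replicate 3 or 4.

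With transcription blocked by triptolide, the drugs separated more genes. Here edgeR called 214 genes higher with cycloheximide (1.99%) and 19 lower (0.177%), or 528 and 148 with the block. The test of the contrast without minus with triptolide called 1 gene above 0 (0.00931%) and 7 below 0 (0.0652%), or 10 (0.0931%) and 66 (0.614%) with the block. Leaving out 1 library without triptolide left 4 calls (without cycloheximide replicate 2) to 7. Rpn1, a subunit of the oligosaccharyltransferase of the endoplasmic reticulum, had 84.1, 71.7 and 83.8 CPM with cycloheximide and 62.6, 52.3 and 52.99 CPM with harringtonine without triptolide. With triptolide it had 104, 64.9 and 67.7 CPM against 14.3, 9.05 and 12.5 CPM, so the gap was wider by 2.20 on the log2 scale (-2.20 ± 0.40). Serp1, which guards membrane proteins at the endoplasmic reticulum, had 229, 258 and 301 CPM against 210, 208 and 228 CPM without triptolide, and 210, 235 and 254 CPM against 68.1, 71.4 and 69.3 CPM with it (-1.46 ± 0.29).

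The mitochondrial chaperone Hspa9 was at 152, 127 and 159 CPM against 131, 109 and 125 CPM without triptolide, and 258, 203 and 231 CPM against 71.0, 53.3 and 74.0 CPM with it. The other genes called below 0 were Wbp2, the actin nucleation subunit gene Arpc5, Tm9sf2 and 9530068E07Rik, with differences from -1.81 to -0.95. Gadd45gip1, a component of the mitochondrial ribosome, went the other way. It had 73.2, 51.9 and 49.7 CPM against 60.6, 43.1 and 52.6 CPM without triptolide, and 10.1, 3.60 and 4.92 CPM against 36.4, 29.6 and 28.7 CPM with it (2.50 ± 0.54). It was the single gene called above 0, and no gene was called above 0 without cycloheximide replicate 2, without harringtonine replicate 3 or 4, or with RLE factors.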

How the data were processed

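RNA sequencing of mouse CD4+ T cells was analysed from the deposited table of whole read counts per gene. The submitters' processing notes name TopHat2 2.0.13, Bowtie 1.1.1.0 and HTSeq as tools and mm10 as the genome build. The strand setting and the annotation are not given in the sources used here, and 105 per-library columns of a second coding-sequence count were not used. Exon, intron, coding-sequence, UTR and ERCC counts were taken as deposited. All 105 libraries entered 1 fit with a mean for each of 35 groups, for genes that passed filterByExpr. The test was the quasi-likelihood F test of edgeR 4.0.16 with TMM normalization, run in R 4.3.3. The exon minus intron difference was fitted with limma 3.58.1 on log2 CPM (prior count 2) computed from the deposited counts. P-values were adjusted by the Benjamini-Hochberg method over all genes tested, with a limit of 0.05, and DESeq2 1.42.0 was an alternative. The fitting was tested on simulated counts, drawn with a replicate effect and the same spread for every gene and library. Such counts cannot tell which libraries the spread should be taken from.

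Same-numbered libraries of both drugs had deviations from their group means that correlated at 0.47, 0.25 and 0.47, each above 0.1, so the numbers were treated as pairing the libraries, and the replicate number within each cell state served as a block. The labels do not say what a number stands for. No pair of replicates of these groups was within sampling noise (lowest chi-square per degree of freedom 3.18). Lists and members were chosen with earlier results of these data known. Genes were named by a rule: for the exon comparison, up to 10 called genes in each direction, ranked by size, that reached a mean of 10 CPM in either group and whose libraries did not overlap, leaving out mitochondrial, pseudogene and predicted symbols. For a gene list, the rule takes the 2 most abundant members and the 2 of smallest p. For differences of the contrast, it takes up to 4 genes in each direction, and Arpc5, Tm9sf2 and 9530068E07Rik are named outside it, to complete the count. The rule was also applied to the calls with the block, after the values were seen. Length, GC content and coordinates come from GENCODE on mm10.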

Additional observations from a re-analysis of the deposited data

Results flagged for a closer look

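In 9 results the effect of cycloheximide against harringtonine differed between conditions by a test of the difference itself (edgeR, adjusted over all genes). Without minus with triptolide, the log2 difference of the contrast was 2.50 for Gadd45gip1, -2.20 for Rpn1, -1.81 for Wbp2, -1.54 for Hspa9, -1.46 for Serp1, -1.38 for Arpc5, -1.14 for 9530068E07Rik and -0.95 for Tm9sf2. Resting minus activated, it was 2.30 for Shmt1, on 2 to 36 counts per resting library.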

How the results depend on the processing

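The single exon call became 2 with DESeq2, 3 with library size alone, and 0 with only the 6 libraries, ERCC scaling, mitochondrial scaling or the GC and length trend removed, and it ranged from 0 to 2 when 1 library was left out. It became 114 with the replicate block. Alternatives chosen after seeing the data gave 134 with the block without the 2 shallowest libraries of the series, 33 with the block and the GC and length trend removed (25 of them among the 114, and none of the 4 decay regulators), 2525 with the block in the 6 libraries alone (1193 higher, 1332 lower), and, with the block, 15, 16 and 46 without cycloheximide replicate 2, 3 or 4 and 22, 15 and 19 without harringtonine replicate 2, 3 or 4. The intron count rose from 0 to 3 with only the 6 libraries (Ubl4a, Hsp90ab1 and Rpl10a). The count without minus with triptolide was 76 with the block and 4 to 7 with 1 library left out, and that of resting minus activated 0 to 1. The block left the counts of the intron, exon minus intron, 3 h minus 1 h and resting minus activated comparisons as they were (0, 0, 0 and 1). Exon counts per ERCC count gave 100.1% with coding-sequence counts and 88.0% to 108% with 1 library left out, so its direction is not settled. Sign flips of the intronic share within replicate numbers gave the smallest possible p, 0.25. The causes were not tested. For the cycloheximide minus harringtonine exon differences of single genes and the medians of lists, 5105 of 5780 alternative values stayed on the same side of the test or within the replicate spread, 310 gained a call, 6 lost one (all Ncaph2), 359 moved, and none of the called values changed sign. Single introns were measured less precisely than exons, with a median SE of 0.42 against 0.27, and the part of depth in this was not tested.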

Other observations

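Reads over untranslated regions were not part of the comparisons above. Counts over 3′ untranslated regions came to 36.0%, 39.6% and 42.5% of coding-sequence counts with cycloheximide and to 41.0%, 45.3% and 47.7% with harringtonine, lower with cycloheximide in all 3 replicate numbers while the groups overlapped (exact permutation test, two-sided, p = 0.2). Counts over 5′ untranslated regions came to 12.8%, 11.7% and 11.4% against 11.4%, 9.35% and 10.98%, higher with cycloheximide in all 3 (exact permutation test, p = 0.2). At 1 h neither ratio kept 1 order across the replicate numbers. Mitochondrial messages made up 0.338%, 0.492% and 0.544% of exon counts with cycloheximide and 0.460%, 0.531% and 0.520% with harringtonine. All of these shares lay below the 1.076%, 1.26% and 1.32% of untreated cells at 3 h. Exon counts per ERCC count were higher with both drugs, with means of 29.9 and 30.3 against 16.1. A lower share of exon counts is therefore not a lower level per spike-in, which was not tested for these messages.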
